A study of Homo sapiens with 4 samples.

Results

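The LRRC8 genes, LRRC8A to LRRC8E, encode the subunits of the volume-regulated anion channel. All 5 were taken by symbol, and the family was chosen because LRRC8E was sharply lower in SiHa cells after DDX24 knockdown. The SiHa table listed 5 of the 5 among 12191 genes and the MS751 table listed 4 among 12037, with LRRC8E not listed there. SiHa and MS751 are established cell lines from human squamous carcinomas of the cervix. The groups were SiHa with siDDX24-1, an siRNA against the transcript of the DEAD-box RNA helicase DDX24, SiHa with siControl, a control siRNA, MS751 with siDDX24-1, and MS751 with siControl, with RNA taken on day 2 in each. Each group was 1 RNA-seq library, 1 siRNA was used against DDX24, and all 4 cultures were transfected with the same lipid reagent, so that no untransfected cells stand beside them. For each of the 4 the sample records give 5 µL of a 20 µM siRNA stock, 2 mL of medium and 10% serum. With 1 library per group, a difference within a line has no replicate check and no p-value, and its 95% interval covers counting error only. In these bulk libraries, fewer cells of a type and less RNA per cell cannot be told apart.

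The volume-regulated anion channel opens when a cell swells and lets chloride and small organic solutes out, and water follows. Each channel is a hexamer that must contain LRRC8A, the obligatory subunit, together with at least some of LRRC8B, LRRC8C, LRRC8D or LRRC8E, and the accessory subunits set what passes through. Channels with LRRC8D carry uncharged and larger solutes, among them taurine, the antibiotic blasticidin and platinum drugs, while LRRC8C and LRRC8E support chloride currents, and channels with LRRC8A and LRRC8E carry the second messenger cGAMP between cells.

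LRRC8B, LRRC8C and LRRC8D lie in that order in a tandem cluster on the plus strand of chromosome 1, and LRRC8A and LRRC8E lie alone. On GRCh38, LRRC8B (ENSG00000197147) spans chr1:89524836-89597864, LRRC8C (ENSG00000171488) spans chr1:89633072-89769903 and LRRC8D (ENSG00000171492) spans chr1:89821014-89936611. LRRC8A (ENSG00000136802) spans chr9:128882112-128918039 and LRRC8E (ENSG00000171017) spans chr19:7888505-7902021, both on the plus strand. The exon union, all annotated exon bases of a gene counted once, was 58.3% GC for LRRC8A and 58.1% for LRRC8E. It was 39.1% for LRRC8B, 41.3% for LRRC8C and 45.1% for LRRC8D. An antisense gene (ENSG00000214248) covers 3218 of the 4329 exon bases of LRRC8E, or 74.3%, and because the sources used here do not say how strand was treated in the counting, reads of the 2 genes cannot be told apart. A coding gene (ENSG00000271949) shares 325 exon bases with LRRC8C and 329 with LRRC8D, which is 2.77% and 6.78% of their exon bases. The antisense gene LRRC8C-DT shares 246 exon bases with LRRC8B, or 2.995% of its exon bases. None of these 3 overlapping genes is listed in the tables used here.

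The 250 bases before the start site are shown for LRRC8E and LRRC8D, the members furthest below siControl in SiHa, and for LRRC8B, the member furthest above it in MS751. The sequences come from RefSeq on GRCh38.p14, plus strand, with all 5 members matched, and LRRC8D has a second annotated start whose window is not shown. Capitals mark a GC box (GGGCGG) or a CCAAT box (CCAAT) on either strand.

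LRRC8E, chr19:7888260-7888509: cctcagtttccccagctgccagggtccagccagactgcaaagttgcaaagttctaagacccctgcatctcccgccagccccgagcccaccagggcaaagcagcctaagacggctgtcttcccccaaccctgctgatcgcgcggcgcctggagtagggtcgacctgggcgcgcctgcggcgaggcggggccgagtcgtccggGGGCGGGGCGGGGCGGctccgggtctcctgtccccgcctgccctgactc

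LRRC8D, chr1:89820782-89821031: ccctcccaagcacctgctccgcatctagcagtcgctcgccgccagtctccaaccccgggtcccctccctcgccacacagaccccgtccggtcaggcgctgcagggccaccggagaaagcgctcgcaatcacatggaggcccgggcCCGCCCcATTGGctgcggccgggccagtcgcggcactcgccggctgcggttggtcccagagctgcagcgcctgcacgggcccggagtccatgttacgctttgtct

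LRRC8B, chr1:89524579-89524828: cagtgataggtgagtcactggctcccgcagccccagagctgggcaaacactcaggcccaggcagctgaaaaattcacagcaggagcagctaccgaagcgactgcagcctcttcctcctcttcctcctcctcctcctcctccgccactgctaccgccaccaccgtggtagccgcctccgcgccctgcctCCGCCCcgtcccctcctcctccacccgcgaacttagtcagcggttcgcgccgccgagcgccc

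The LRRC8E window holds 3 GC boxes, of which each overlaps the next by 1 base. The LRRC8D window holds 1 GC box and 1 CCAAT box, and the LRRC8B window holds 1 GC box. GC boxes stand in 42.6% of the 35116 RefSeq windows of this length, and CCAAT boxes in 32.0%. No E-box (CACGTG) or TATA box (TATAAA) was found in the 3 windows, against 6.34% and 10.7% of all windows. LRRC8A has a cAMP response element (TGACGTCA) in the window before its first start, a motif found in 1.65% of all windows. These matches describe the letters and show no binding.

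DDX24 was lower in both knockdown libraries. It had 575 counts in SiHa siDDX24-1, against 3464 in SiHa siControl (log2 fold -2.71), and 993 in MS751 siDDX24-1, against 2072 in MS751 siControl (log2 fold -1.20). OTUB2, on the other strand and listed in the tables, shares 640 exon bases with DDX24, or 7.41%. Library totals ran from 13160487 to 20117442 counts, and every listed gene exceeded a level of 1 CPM (the usual scaling of counts to a common library size) in both libraries of its line, so genes below that level in either library are missing. Of the markers of cervical squamous epithelium, 6 of 10 were listed in SiHa and 4 of 10 in MS751. KRT8, KRT18, EPCAM and SFN were listed in both, and KRT5, KRT14, KRT6A and TP63 in neither. The summed level of those listed was 2251 CPM with siDDX24-1, against 2568 CPM with siControl in SiHa, and 163 CPM with siDDX24-1, against 141 CPM with siControl in MS751. In MS751 KRT18 alone was above siControl (127 CPM with siDDX24-1, against 85.2 CPM with siControl). SFN had 40 counts with siDDX24-1, against 168 with siControl there (log2 fold -2.18), the 1 epithelial marker past 2-fold, and the median over the 4 was -0.32. The part of these markers in the results was not tested. Markers of other cells were few. Among the 5 fibroblast markers, COL1A1 was the one past 2-fold, with log2 folds of -1.16 in SiHa (-0.95 with the GC trend removed) and -1.86 in MS751. The listed fibroblast markers, 2 in SiHa and 3 in MS751, with DCN in neither, summed to 8.63 CPM with siDDX24-1, against 18.2 CPM with siControl in SiHa, and to 28.2 CPM with siDDX24-1, against 89.7 CPM with siControl in MS751. COL1A1 made most of the MS751 sum, at 23.7 CPM with siDDX24-1, against 86.2 CPM with siControl. The others listed there were not lower, with COL1A2 at a log2 fold of 0.43 and LUM at 0.035. In SiHa the other listed marker, PDGFRB, was at -0.24. The part of the fibroblast markers was not tested either. Endothelial markers had 1 of 5 listed in SiHa (13.7 CPM with siDDX24-1, against 12.4 CPM with siControl) and none in MS751. Leukocyte markers had 2 of 5 in SiHa (summed 242 CPM with siDDX24-1, against 220 CPM with siControl) and 1 in MS751 (6.10 CPM with siDDX24-1, against 3.78 CPM with siControl).

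The fold of a gene went with its GC content, with a Spearman correlation across genes of -0.34 in SiHa and -0.37 in MS751. Genes are not independent replicates, and the part of GC content in the folds below was not tested beyond removing the fitted trend.

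In SiHa, the transcripts of LRRC8D and LRRC8E were several-fold lower in the siDDX24-1 library, while those of LRRC8A, LRRC8B and LRRC8C were level or slightly higher. LRRC8D had 421 counts with siDDX24-1, against 2507 with siControl. On the scale of TMM-scaled CPM this is 21.4 CPM with siDDX24-1 (95% interval 19.4 to 23.5), against 139 CPM with siControl (133 to 144), or 6.47-fold lower (log2 fold -2.69, 95% interval -2.85 to -2.55). LRRC8D thus differed by about as much as the siRNA target itself, and the fold of LRRC8D was the 11th lowest of 12191 while that of DDX24 was the 10th lowest. LRRC8E had 28 counts with siDDX24-1, against 259 with siControl. This is 1.42 CPM with siDDX24-1 (0.945 to 2.06), against 14.3 CPM with siControl (12.6 to 16.2), 9.75-fold lower (log2 fold -3.28, 95% interval -3.95 to -2.77). It was the 5th lowest fold of the 12191 listed genes. Genes below 1 CPM in either SiHa library are missing from these ranks. The 28 counts lie close to the lowest listed count in that library, 21, so LRRC8E was near the limit for being listed at all.

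The other SiHa subunits had small folds above 0. LRRC8A, the subunit without which no channel forms, had 2444 counts with siDDX24-1, against 1943 with siControl, a log2 fold of 0.21 (95% interval 0.12 to 0.29). LRRC8C had 1174 counts with siDDX24-1, against 985 with siControl, a log2 fold of 0.13 (0.0071 to 0.25). LRRC8B, one of the less studied subunits, had 358 counts with siDDX24-1, against 246 with siControl, a log2 fold of 0.42 (0.18 to 0.66). Each of these intervals lay above 0, as did those of 30.3% of all SiHa genes, and the LRRC8D and LRRC8E intervals lay below 0, as did those of 29.9%. With the GC trend removed the log2 fold was 0.39 for LRRC8A, 0.042 for LRRC8C and 0.32 for LRRC8B.

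**Figure D1:**
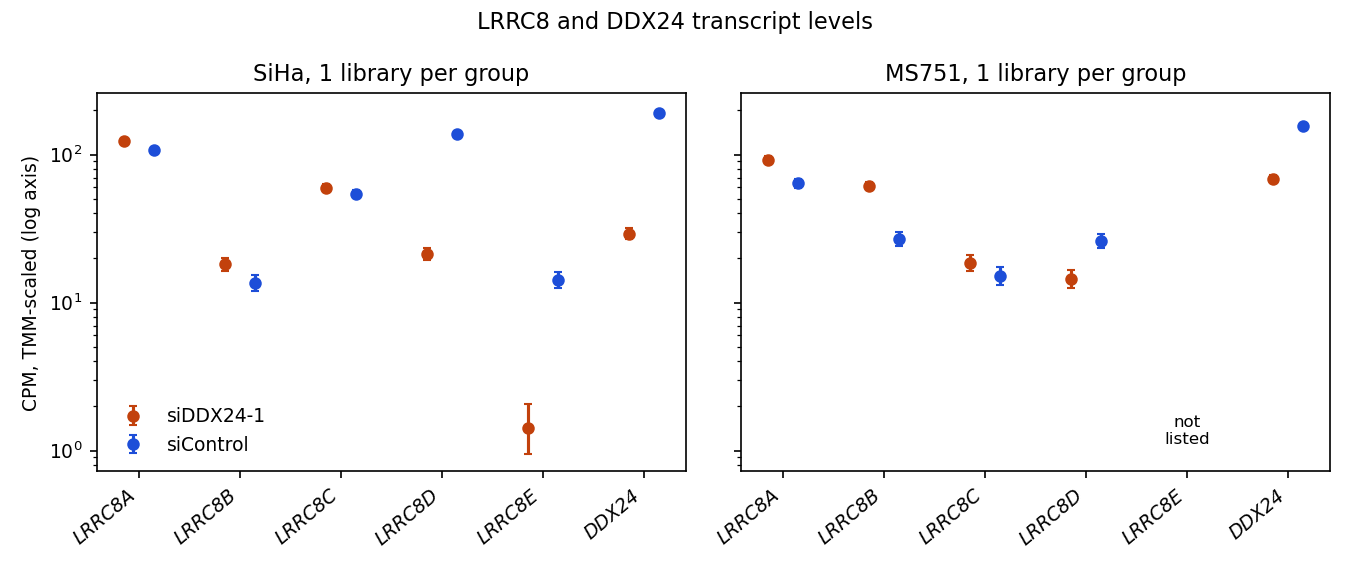
TMM-scaled CPM on a log axis for the LRRC8 genes and DDX24 in SiHa (left) and MS751 (right), with siDDX24-1 in orange and siControl in blue, 1 library per point and exact Poisson 95% intervals as bars. In SiHa, LRRC8D stood at 21.4 CPM with siDDX24-1 and 139 CPM with siControl, and LRRC8E at 1.42 CPM with siDDX24-1 and 14.3 CPM with siControl, while LRRC8E was not listed in MS751.

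In MS751, LRRC8B was more than 2-fold higher in the siDDX24-1 library, LRRC8A was higher by less, and LRRC8D was lower. LRRC8B had 898 counts with siDDX24-1, against 357 with siControl. This is 61.5 CPM with siDDX24-1 (57.6 to 65.7), against 27.0 CPM with siControl (24.3 to 29.96), a log2 fold of 1.19 (95% interval 1.01 to 1.37) that was 0.997, just under 2-fold, with the trend of the fold on GC content removed. LRRC8D had 212 counts with siDDX24-1, against 344 with siControl, which is 14.5 CPM with siDDX24-1 (12.6 to 16.6), against 26.0 CPM with siControl (23.3 to 28.9). Its log2 fold was -0.84 (95% interval -1.095 to -0.59).

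LRRC8A in MS751 had 1350 counts with siDDX24-1, against 846 with siControl, or 92.5 CPM with siDDX24-1, against 64.0 CPM with siControl, a log2 fold of 0.53 (95% interval 0.41 to 0.66). LRRC8C had 271 counts with siDDX24-1, against 201 with siControl, a log2 fold of 0.29 (0.020 to 0.56). With the GC trend removed these were 0.85 for LRRC8A and 0.12 for LRRC8C. Intervals above 0 were seen in 36.4% of all MS751 genes and intervals below 0, as for LRRC8D, in 36.1%. LRRC8D was therefore the member below siControl in both lines, and LRRC8A, LRRC8B and LRRC8C lay above it in both. The LRRC8D log2 fold was -2.69 in SiHa (95% interval -2.85 to -2.55) and -0.84 in MS751 (-1.095 to -0.59). These intervals cover counting error only, and with 1 library per group the difference between the lines could not be tested.

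Against all genes, 2 of 5 members were at least 2-fold lower in SiHa, where 3.05% of 12191 genes were, and none was at least 2-fold higher, where 1.46% were. The family was chosen on this contrast, so nothing is read from that count. In all, 372 SiHa genes were at least 2-fold lower and 178 higher, or 272 lower and 204 higher with the GC trend removed. In MS751, 1 of 4 listed members (LRRC8B) was at least 2-fold higher, where 3.74% of 12037 genes were, and none was at least 2-fold lower, where 8.55% were. The MS751 fold of LRRC8D, -0.84, lay at percentile 11.4 of all genes in that line and that of LRRC8B at percentile 97.8. None of the 4 members listed in both lines was at least 2-fold lower in both, where 0.9% of 11113 genes were, or at least 2-fold higher in both, where 0.243% were.

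**Figure D2:**
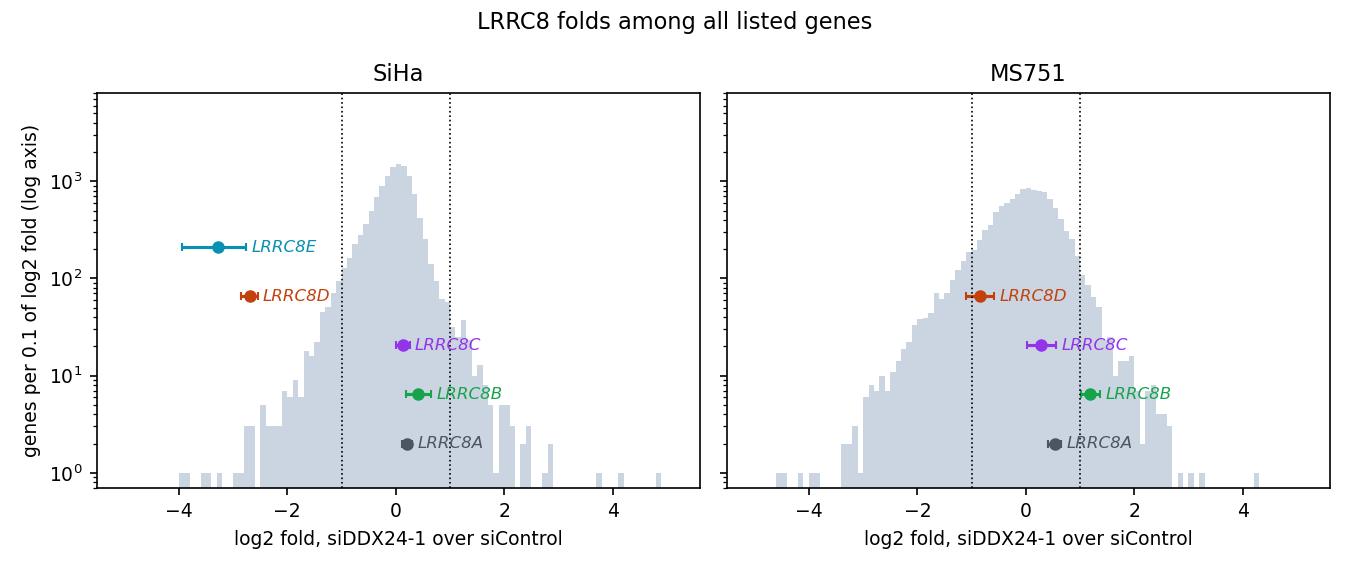
Log2 folds (siDDX24-1 over siControl) of the LRRC8 genes, as points with exact 95% counting intervals, over a histogram of all listed genes in SiHa (left) and MS751 (right). The histogram's vertical axis is logarithmic, the height of a point has no meaning, and dotted lines mark 2-fold. LRRC8E (-3.28) and LRRC8D (-2.69) lie in the far lower tail in SiHa, and LRRC8B (1.19) lies above 2-fold in MS751.

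A change shared by SiHa and MS751 was tested in the 11113 genes listed in both tables, by the quasi-likelihood test of edgeR on all 4 libraries, blocked on cell line. This test includes the SiHa libraries on which the family was chosen. None of the 4 members passed an adjusted p of 0.05, and 0.027% of all genes passed it as lower and 0.018% as higher. LRRC8D had a common log2 fold of -1.81 ± 0.43 (model SE, 2 lines, edgeR adjusted p = 0.25), LRRC8B 0.79 ± 0.27 (adjusted p = 0.34), LRRC8A 0.35 ± 0.21 (adjusted p = 0.50) and LRRC8C 0.19 ± 0.23 (adjusted p = 0.73). Each SE was derived from the F statistic of the test, with variance partly pooled over genes. It does not measure the spread of that gene between the 2 lines. The unadjusted p was 0.0032 for LRRC8D and 0.021 for LRRC8B, where 12.6% of all genes had an unadjusted p under 0.05. DDX24, the target itself, had an adjusted p of 0.17 (edgeR), so the test missed a gene lowered by design. With DESeq2, which called 71 of all genes lower and 26 higher, the adjusted p of LRRC8D was 0.0028. Over the other alternatives, edgeR variants and limma, the adjusted p of LRRC8D was at least 0.19.

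The siControl libraries of the lines, 1 library each and so with no test, differed in their LRRC8 transcripts. On TMM-scaled CPM over the genes listed in both tables, LRRC8D stood at 148 CPM in SiHa siControl, against 26.8 CPM in MS751 siControl (5.51-fold, log2 fold 2.46, 95% interval 2.30 to 2.63). LRRC8C stood at 58.2 CPM in SiHa, against 15.7 CPM in MS751 (log2 fold 1.89, 1.67 to 2.12), and LRRC8A at 115 CPM in SiHa, against 66.0 CPM in MS751 (log2 fold 0.80, 0.68 to 0.92). LRRC8B alone was lower in SiHa, at 14.5 CPM, against 27.8 CPM in MS751 (log2 fold -0.93, -1.18 to -0.70). SiHa was at least 2-fold higher for 2 of these 4 genes, where 13.8% of genes were. LRRC8E was listed in SiHa and not in MS751. The level of LRRC8D in the SiHa siDDX24-1 library, 21.4 CPM, was of the size seen in MS751 with siControl, 26.0 CPM, each scaled within its own line.

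Levels of different subunits were compared per length, as counts per kilobase of exon union. In SiHa the leading subunit differed between the libraries. LRRC8A made up 66.3% of the listed LRRC8 counts per kilobase with siDDX24-1 (95% counting interval 65.5 to 67.2), against 35.0% with siControl (33.97 to 36.0). LRRC8D made up 12.3% with siDDX24-1 (11.3 to 13.4), against 48.6% with siControl (47.7 to 49.6). LRRC8D thus led with siControl and LRRC8A with siDDX24-1, an order that held with the longest transcript and with the median coding transcript as the length. Summed over the listed members, the level was 35.8 CPM per kilobase with siDDX24-1, against 58.7 with siControl. With the median coding transcript it was 64.5 CPM per kilobase with siDDX24-1, against 205 with siControl.

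In MS751 LRRC8A led in both libraries by exon union. LRRC8A made up 59.4% with siDDX24-1 (58.1 to 60.7), against 55.2% with siControl (53.5 to 56.8). LRRC8B made up 25.2% with siDDX24-1 (24.0 to 26.4), against 14.8% with siControl (13.5 to 16.2), and LRRC8D 10.1% with siDDX24-1 (8.87 to 11.4), against 24.2% with siControl (22.2 to 26.2). The sum was 29.8 CPM per kilobase with siDDX24-1, against 22.2 with siControl, but 48.0 with siDDX24-1, against 49.1 with siControl with the median coding transcript, so its direction turned with the length. LRRC8A led with siDDX24-1 under all 3 lengths. Which subunit led with siControl depended on the length, since with the median coding transcript, 905 bases for LRRC8D against an exon union of 4852, LRRC8D made up 58.5% with siControl and LRRC8A 29.9%.

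**Figure D3:**
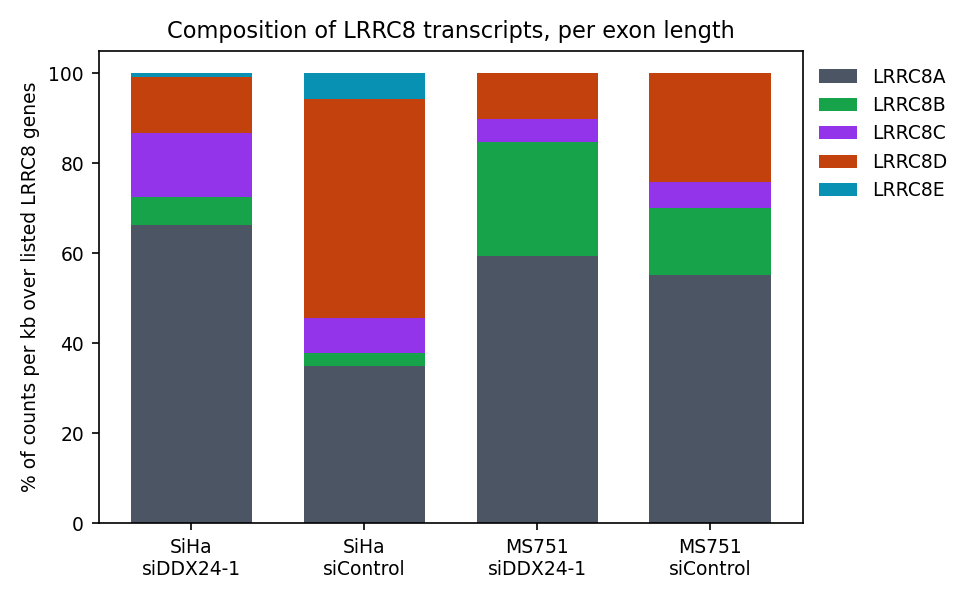
Share of each LRRC8 gene in the counts per kilobase of exon union, summed over the listed LRRC8 genes, for the 4 libraries (bars from 0 to 100%). In SiHa the LRRC8D share is 12.3% with siDDX24-1 and 48.6% with siControl, and in MS751 the LRRC8B share is 25.2% with siDDX24-1 and 14.8% with siControl.

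No listed coding neighbour of LRRC8D or LRRC8E was past 2-fold in SiHa, where 3.05% of all genes were lower and 1.46% higher. In MS751 8.55% of all genes were lower and 3.74% higher. With so few neighbours listed, nothing is read from these counts. Outside the family, LRRC8D had 1 of 2 coding neighbours listed in each line. LRRC8D lies beyond LRRC8C in the same cluster, and ZNF326, a zinc finger gene that starts 174098 bases beyond LRRC8D, had log2 folds of 0.11 in SiHa and 0.58 in MS751. Of the 17 coding genes that start within 250 kb of LRRC8E, 8 were listed in SiHa, with log2 folds from -0.96 to 0.26 and none past 2-fold. The lowest was SNAPC2, a subunit of a transcription factor complex of small nuclear RNA genes, with 154 counts with siDDX24-1, against 276 with siControl in SiHa. In MS751, where 8 of the 17 were listed, PRR36 had 168 counts with siDDX24-1, against 690 with siControl (log2 fold -2.17), and it lies on the minus strand before LRRC8E. Around LRRC8A, SiHa had 15 of 18 coding neighbours listed and MS751 had 17, at log2 folds between -0.79 and 0.48. KYAT1, which starts 382 bases from LRRC8A on the other strand, had log2 folds of -0.0090 in SiHa and -0.54 in MS751.

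**Figure D4:**
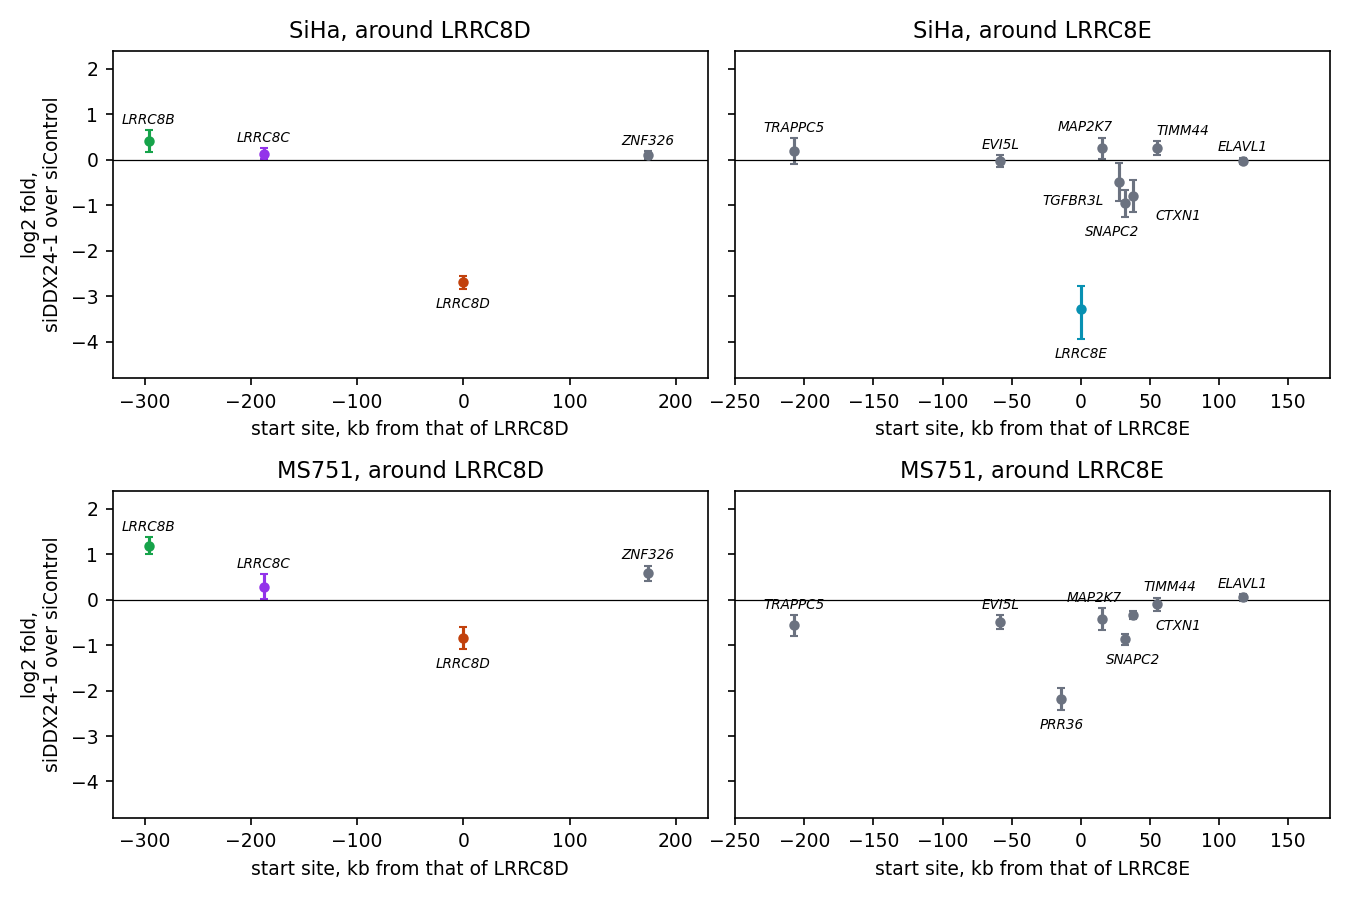
Log2 folds (siDDX24-1 over siControl) of listed coding genes by the distance of their start site, in kb, from that of LRRC8D (left) and LRRC8E (right), in SiHa (top) and MS751 (bottom), with exact 95% counting intervals. LRRC8D (-2.69) and LRRC8E (-3.28) lie below every listed neighbour shown in SiHa. The family was chosen on the low SiHa fold of LRRC8E, so nothing is read from that order. PRR36 (-2.17) is the lowest near LRRC8E in MS751.

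The genes whose levels followed a member most closely were found by the distance between log2 CPM values, centred on each gene's mean over the libraries. Genes were picked by this distance, so folds near those of a member follow from the choice and are no separate result. Over 4 libraries, ZNF24, SPOCD1 and MXD1 were nearest to LRRC8D, at distances of 0.56 to 0.83, and their SiHa log2 folds were -2.86, -2.30 and -2.69. Their MS751 log2 folds were -0.062, -0.72 and -0.36, against -0.84 for LRRC8D, so ZNF24 and MXD1 did not follow it closely there. LRRC8A was followed more closely, by TMEM237, SLC25A24 and ZNF776 at distances of 0.037 to 0.043. LRRC8B was nearest to MIR1915HG, PHACTR2 and DSCC1 (0.14 to 0.21) and LRRC8C to SUMO3, FBXO21 and PCDHB13 (0.054 to 0.10). For LRRC8E only the 2 SiHa libraries can be used, and the distance is then no more than the difference from the fold on which the family was chosen. The nearest by it were MYC, EDN2 and MINDY2, with SiHa log2 folds of -3.40, -3.54 and -2.91, while MYC was at 0.30 and MINDY2 at -0.20 in MS751.

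Genes that work beside the channel were described by 6 lists. The counts past 2-fold below stand beside 1.46% higher and 3.05% lower among all SiHa genes, and 3.74% higher and 8.55% lower among all MS751 genes. Of 34 genes of cell volume regulation, the SiHa table held 29, with a median log2 fold of -0.18 (all genes -0.0041), 2 of them at least 2-fold lower and none higher. In MS751 26 were listed, with a median of -0.12 (all genes 0.00081), 4 at least 2-fold lower and none higher. With the GC trend removed the medians were -0.14 in SiHa (all genes 0.025) and -0.15 in MS751 (all genes 0.042). KCNK5, a potassium channel gene, was then at 1.11 in MS751. SLC12A5, a potassium chloride cotransporter, was past 2-fold in both lines, with 75 counts with siDDX24-1, against 163 with siControl in SiHa (log2 fold -1.23), and 27 with siDDX24-1, against 75 with siControl in MS751 (log2 fold -1.58). NFAT5, the transcription factor of the response to high salt, had 300 counts with siDDX24-1, against 1219 with siControl in MS751 (log2 fold -2.16), and a log2 fold of 0.18 in SiHa. SLC6A12, which carries the osmolyte betaine, had a log2 fold of -1.59 in MS751 and -0.79 in SiHa. The water channel genes AQP11 (-1.39 in MS751) and AQP1 (-1.18 in SiHa, from 21 counts with siDDX24-1, against 45 with siControl) complete those past 2-fold.

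The medians of other anion channels lay below 0, in MS751 by little once the GC trend was removed. Of 30 genes, the SiHa table held 16 (median log2 fold -0.29), 1 at least 2-fold higher and 2 lower. The MS751 table held 17 (median -0.48), 2 higher and 4 lower. With the GC trend removed the medians were -0.22 in SiHa (all genes 0.025) and -0.082 in MS751 (all genes 0.042), where 1 was then higher and 3 lower. BEST1, a calcium-activated chloride channel, was past 2-fold in both lines, with 271 counts with siDDX24-1, against 559 with siControl in SiHa (log2 fold -1.16) and a log2 fold of -1.24 in MS751. CLCN5, an endosomal chloride-proton exchanger, had 68 counts with siDDX24-1, against 352 with siControl in MS751 (log2 fold -2.50) and a log2 fold of -0.42 in SiHa. The related CLCN6 was at -1.63 in MS751 and -0.95 in SiHa. PACC1, the acid-activated chloride channel, had 523 counts with siDDX24-1, against 212 with siControl in MS751 (log2 fold 1.16), and a log2 fold of -0.19 in SiHa. CLCN3 (1.05, or 0.88 with the GC trend removed) and ANO8 (-1.19, or -0.51) were past 2-fold in MS751, and CLCN4 (1.08) and SLCO2A1 (-1.34) in SiHa.

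Pannexins and connexins, which like LRRC8 form wide pores, held few listed genes. Of 22 genes on the list of other large-pore channels, which also holds the CALHM genes, SiHa had 11 and MS751 had 8. The median log2 fold was -0.17 in SiHa (-0.085 with the GC trend removed) and -0.33 in MS751 (-0.35 with the GC trend removed). PANX2 was at -1.46 in SiHa and CALHM5 at -1.60 in MS751, and no other was past 2-fold. Genes of cGAMP signalling and transport had 8 of 11 listed in each line, with medians of -0.0097 in SiHa and -0.38 in MS751 and none past 2-fold. With the GC trend removed the medians were -0.056 in SiHa and -0.13 in MS751, and SLC19A1, a folate carrier that also imports cGAMP, was at 1.32 in MS751, against 0.82 without the removal. CGAS, which makes cGAMP, and STING1, which senses it, were listed in SiHa alone, as was LRRC8E, with log2 folds of -0.04 and -0.18. Genes of platinum drug transport had 8 of 10 listed in each line, medians of -0.028 in SiHa and -0.054 in MS751 (-0.014 in SiHa and -0.11 in MS751 with the GC trend removed) and none past 2-fold. SLC31A1, the copper transporter through which platinum drugs can also enter, was at -0.06 in SiHa and 0.04 in MS751.

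Insulin and AKT signalling, to which LRRC8A has been tied through the adaptor GRB2, had 20 of 21 genes listed in SiHa. Their median was 0.11, or 0.15 with the GC trend removed, with 3 at least 2-fold higher and none lower. In MS751 19 were listed (median -0.12, or -0.035 with the GC trend removed), 3 higher and 1 lower. PDPK1, the kinase that activates AKT, had 1805 counts with siDDX24-1, against 713 with siControl in SiHa (log2 fold 1.22), and 550 with siDDX24-1, against 96 with siControl in MS751 (log2 fold 2.36). PIK3R1, a regulatory subunit of PI3-kinase, was at 1.13 in SiHa and 1.102 in MS751, or 0.92 in MS751 with the GC trend removed. GRB2 had 3653 counts with siDDX24-1, against 994 with siControl in MS751 (log2 fold 1.73) and a log2 fold of 0.56 in SiHa. CAV1, the caveolar coat protein, was at 1.27 in SiHa and -0.61 in MS751, and IGF1R at -0.06 in SiHa and -1.49 in MS751. Of the 78 genes of the 6 lists tested for a change common to both lines, none passed edgeR's quasi-likelihood test at an adjusted p of 0.05, and 18 had an unadjusted p under 0.05, where 12.6% of all genes did. DESeq2 called CLCN6 and PDPK1, among 71 genes lower and 26 higher over the 11113.

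**Figure D5:**
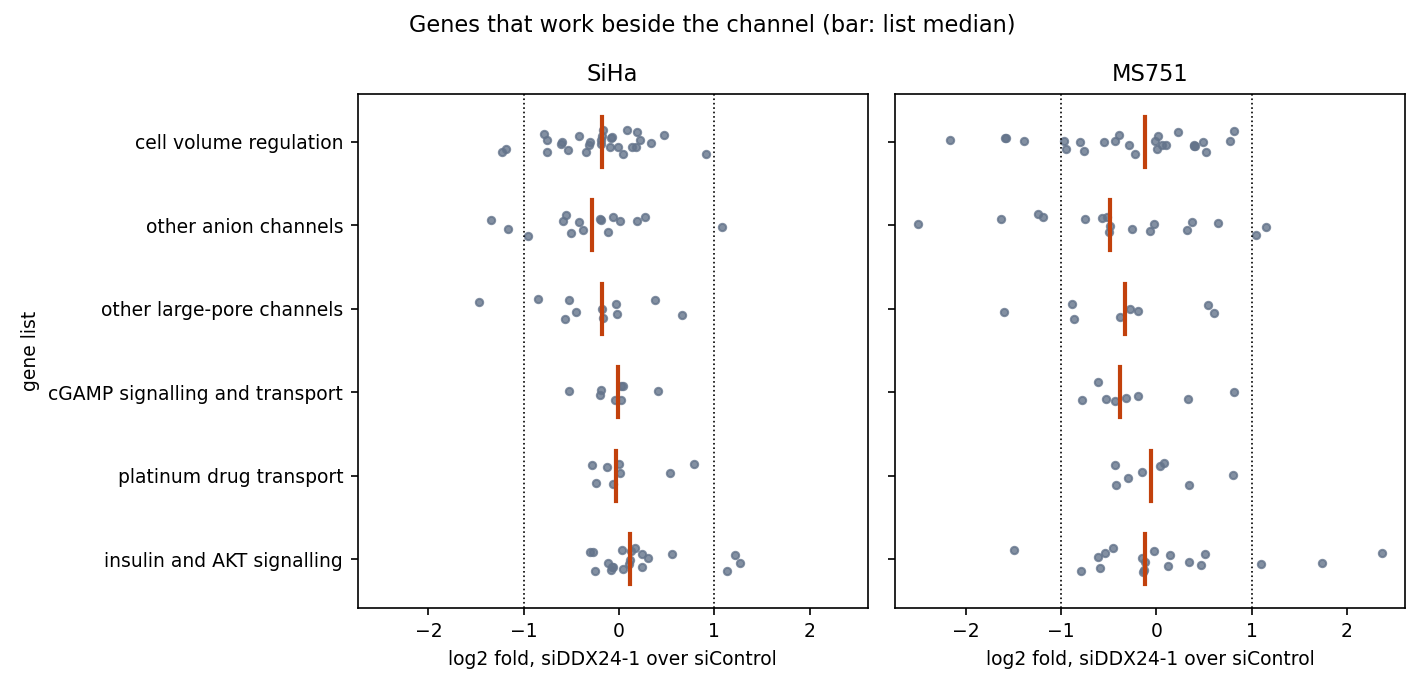
Log2 folds (siDDX24-1 over siControl) of the listed genes of 6 lists around the channel in SiHa (left) and MS751 (right). Each point is 1 gene, scattered vertically within its list for visibility, orange bars are list medians and dotted lines mark 2-fold. The other anion channels have medians of -0.29 in SiHa and -0.48 in MS751 (-0.22 and -0.082 with the GC trend removed, which is not drawn). In insulin and AKT signalling, 3 genes are at least 2-fold higher in each line, where 1.46% of all SiHa and 3.74% of all MS751 genes are. They are not the same 3: PDPK1 and PIK3R1 are higher in both lines, CAV1 in SiHa alone and GRB2 in MS751 alone. With the GC trend removed, 3 are higher in SiHa and 2 in MS751.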

How the data were processed

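RNA was sequenced from SiHa and MS751 cells on day 2 after transfection. The authors deposited 1 table per line, holding whole-number counts of reads for each Ensembl gene without normalization. GRCh38.p12, StringTie 1.3.4d, HISAT2 2.0.4 and fastp 0.23.2 are named, per the submitters' processing notes, with no role or order. The counter, annotation and strand setting are not stated there. Repeated identical rows (70 in SiHa, 73 in MS751) were dropped. All 13115 identifiers matched GENCODE release 29, which gave positions, lengths and GC content.

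Log2 folds used edgeR 4.0.16 (R 4.3.3) with TMM factors, a prior count of 1 and a filter at a mean of 1 CPM. Their 95% intervals come from the exact conditional binomial (Clopper-Pearson), levels have exact Poisson intervals, and a share's interval moves that gene's count alone. Reads copied by PCR are not independent molecules, so these cover counting error at most. The common change used edgeR's quasi-likelihood test with Benjamini-Hochberg adjustment over 11113 genes. Its replicates are the lines, with 1 residual degree of freedom, and variance is partly pooled over genes. A p-value therefore does not measure the spread of a single gene between the lines, and it covers only these lines and libraries. In simulated counts for these genes, with 50 genes changed at each fold, the test recovered 40% at 2-fold and 100% at 4-fold and called 9 unchanged genes. The simulation gave all genes 1 dispersion and each changed gene the same fold in both lines. Real folds differed between the lines (DDX24 -2.71 in SiHa, -1.20 in MS751), so these rates need not hold here. In the real data the test called 5 genes and missed DDX24, at a common log2 fold of -1.97.

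The members, lists and tests were chosen with earlier results of these data known. Named genes were the members, DDX24, list genes past 2-fold in a line, coding genes starting within 250 kb of a member and the 3 nearest in pattern. ZNF326, KYAT1, SNAPC2 and PRR36 were singled out among neighbours, and CGAS, STING1, SLC31A1, KCNK5 and SLC19A1 among the lists, after their values were seen. So were the markers SFN, KRT18, COL1A1, COL1A2, LUM and PDGFRB. Alternatives were other scalings, prior counts, filters, GC trend removal (mgcv 1.9.3), DESeq2 1.42.0, limma 3.58.1 and other lengths.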

Additional observations from a re-analysis of the deposited data

Results flagged for a closer look

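No LRRC8 gene listed in both lines lay on opposite sides of siControl in them. Among the genes of the 6 lists and the neighbours, 3 were past 2-fold in a line and lay on opposite sides of 0 in the lines, with both counting intervals clear of 0. With 1 library per group, every library trivially moves one way, and the difference between the lines was not tested. CAV1 had log2 folds of 1.27 in SiHa and -0.61 in MS751, a difference of 1.88. CLCN4 had 1.08 in SiHa and -0.49 in MS751, a difference of 1.57. NFAT5 had 0.18 in SiHa and -2.16 in MS751, a difference of 2.34.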

How the results depend on the processing

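The SiHa folds of LRRC8D and LRRC8E kept their direction and stayed past 2-fold under each of the other scalings, prior counts and filters and with the GC trend removed. Removing that trend moved LRRC8A to 0.39 in SiHa and 0.85 in MS751 and LRRC8B in MS751 to 0.997, which left 0 members at least 2-fold higher there. At a mean of at least 5 CPM, where fewer genes enter, 3 list genes were at least 2-fold lower in SiHa, against 5. In the common test DESeq2 called 71 genes lower and 26 higher, against 3 and 2 with edgeR, and with it LRRC8D passed (log2 fold -1.82, adjusted p = 0.0028) and so did DDX24 (-1.99, adjusted p = 3.1e-05). Over the other alternatives, fits with limma included, the adjusted p of LRRC8D ran from 0.19 to 1.00. RLE factors, a mean of at least 5 CPM and the fit without the cell line as a block each called 0 lower and 0 higher, and the cause was not tested. No paired analysis by replicate number was possible because each group had 1 library; the block was the cell line.

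Shares depended on the length. With the longest transcript, LRRC8A was 62.2% with siDDX24-1 and 32.6% with siControl in SiHa, and LRRC8B 22.6% with siDDX24-1 and 13.0% with siControl in MS751. With the median coding transcript, LRRC8A was 44.2% with siDDX24-1 and 12.05% with siControl in SiHa, and LRRC8D 36.6% with siDDX24-1 and 74.85% with siControl. In MS751 that length gave LRRC8A 44.2% with siDDX24-1 and 29.9% with siControl, LRRC8B 17.0% and 7.30%, and LRRC8D 33.4% and 58.5%, in the same order of libraries. LRRC8E with 28 counts is the member that depth limits most, and no replicate was left out because no group had more than 1.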
